A study of Homo sapiens with 12 samples.

Results

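The endoplasmic reticulum (ER) factors of the CREB3L family and the ER chaperone and quality-control genes around them were followed in SKBR3 cells, a human breast cancer line that carries an amplified ERBB2 (HER2) gene. The set has 10 genes of the 22170 in the deposited table: the transcription factors CREB3L1, CREB3L2 and CREB3L4, the chaperones HSPA5 and HSP90B1, the co-chaperones DNAJB9 and SDF2L1, and the degradation genes HERPUD1, SEL1L and EDEM1. They were taken by symbol. CREB3L1 was chosen by its measured increase with lapatinib over DMSO, which was among the largest in the table, so that contrast is given here as a description, with no test or call.

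Messenger RNA was sequenced from 12 libraries in 4 groups of 3, all labelled wild type. The DMSO group had vehicle throughout. The lapatinib group had vehicle and then 100 nM lapatinib, an inhibitor of the EGFR and HER2 kinases, for the last 24 h. The GSK126 group had 5 µM GSK126, an inhibitor of the histone methyltransferase EZH2, for all 7 days, beginning on day -6, and the combination group had that GSK126 course with lapatinib in the last 24 h. All cells were passaged on day -3 and put into 6 cm plates on day -1, with 350000 cells to a plate. The labels name no separate cultures behind the libraries of a group, so the p-values measure the spread between these libraries, which may be technical. These are cells of 1 line on bulk RNA, where fewer cells of a state and less RNA per cell cannot be told apart.

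CREB3L proteins are made as transcription factors anchored in the ER membrane. They travel to the Golgi, where a pair of proteases cuts them and sets the DNA-binding part free to enter the nucleus, a route they share with ATF6. ATF6 and XBP1, the factor made when the sensor IRE1 splices its messenger RNA, are the classical activators of chaperone and degradation genes when unfolded proteins build up in the ER. A further sensor, PERK, slows translation and raises ATF4 and its targets. CREB3L1 is best known in bone and other secretory cells, CREB3L2 in cartilage, and CREB3L4 in the prostate.

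The promoters of the ER genes are known for short elements bound by ATF6 and XBP1, and they are shown here because genes that share an element differed in the values given below. RefSeq windows on GRCh38.p14, from 250 bases before to 50 after a gene's start, were found for all 10 genes (11 windows, with 2 for CREB3L2) and searched on both strands. The deposited reads were aligned to another build, so the positions below belong to RefSeq's build alone. The element ERSE was searched as CCAAT and CCACG with any 9 bases between them, ERSE-II as ATTGG and CCACG with any 1 base between them, a UPRE as TGACGTGG, a CRE as TGACGTCA, and the core CCACGTG on its own. The core can share letters with the other elements. Stretches from 6 windows follow, 5′ to 3′ on the gene's strand, with the matches in capitals.
HSPA5, chr9:125241361-125241439, minus strand: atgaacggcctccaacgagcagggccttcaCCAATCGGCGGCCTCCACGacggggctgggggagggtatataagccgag
HSP90B1, chr12:103930160-103930369, plus strand: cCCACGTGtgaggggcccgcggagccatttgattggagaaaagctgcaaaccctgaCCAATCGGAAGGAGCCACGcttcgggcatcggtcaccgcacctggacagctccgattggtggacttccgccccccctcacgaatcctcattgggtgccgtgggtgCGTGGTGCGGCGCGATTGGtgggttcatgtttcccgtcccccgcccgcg
HERPUD1, chr16:56931952-56932065, plus strand: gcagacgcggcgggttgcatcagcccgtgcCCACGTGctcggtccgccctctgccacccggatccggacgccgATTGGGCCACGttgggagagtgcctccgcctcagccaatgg
SDF2L1, chr22:21642084-21642154, plus strand: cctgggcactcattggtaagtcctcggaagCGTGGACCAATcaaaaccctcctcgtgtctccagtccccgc
DNAJB9, chr7:108569770-108569861, plus strand: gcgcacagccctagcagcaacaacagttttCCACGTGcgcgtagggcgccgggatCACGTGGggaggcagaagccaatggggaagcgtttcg
CREB3L2, chr7:138002228-138002295, minus strand: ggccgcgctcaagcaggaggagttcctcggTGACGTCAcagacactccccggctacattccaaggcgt

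HSPA5 had 1 ERSE, from -66 to -48 counted from the gene's start. HSP90B1 had 2, from -194 to -176 and, on the other strand, from -89 to -71. Among all 35116 windows of the table, 27 (0.0769%) held an ERSE. HERPUD1 had an ERSE-II from -117 to -107, and SDF2L1 had one on the other strand from -188 to -178, an element found in 19 windows (0.0541%). DNAJB9 held the core CCACGTG 2 times, HERPUD1 and HSP90B1 held it as well, and 4.2% of all windows did. CREB3L2 had a CRE at -179 to -172, a palindrome found in 1.85% of windows. No member held the UPRE, which 0.729% of windows did. None of the letters searched lay in the windows of CREB3L1, CREB3L4, SEL1L and EDEM1. A match describes the sequence and shows no binding. Only exact letters were searched, so an element that differs by a base is missed, and no match does not show that an element is absent.

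Library totals ran from 18.0 to 30.47 M reads, and the p-values and folds below come from limma on log2(normalized count + 1), with Benjamini-Hochberg adjustment over the 14179 genes tested and a call at an adjusted p under 0.05. All 10 genes passed the filter, which asked for 3 or more libraries with a value of 10 or more, and the lowest value of CREB3L1 in any library was 58.8. Values are normalized read counts on the authors' size factors and are set side by side within a gene, never between genes. The added spike-in transcripts differed in composition. All DMSO and lapatinib libraries and combination libraries 2 and 3 shared 1 composition, GSK126 libraries 2 and 3 and combination library 1 shared another, and GSK126 library 1 stood alone. No GSK126 library shared a composition with a DMSO library, so that comparison has no value within a composition. A fit with composition as a term reaches it only through the combination group, which held libraries of the DMSO composition and of the one that GSK126 libraries 2 and 3 had. GSK126 library 1 also had the most extreme values of several genes below, and combination library 1 had 21669 genes detected against 15059 to 17338 in the others. On the sum of spike-in reads instead of the size factors, the median change of all genes shifted by -0.53 with lapatinib over DMSO and by -1.03 with lapatinib after GSK126. All changes below are thus relative to the other genes.

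Keratins and ERBB2 were abundant in every group, with a mean KRT8 count of 185300 in DMSO and ERBB2 of 154300. The epithelial cadherin CDH1 was near 0 (0 to 12.45). Of the markers of other cells, PTPRC, PECAM1, DCN and LUM averaged under 10 in each group. The sum of 5 endothelial markers was 206 to 266.8 in DMSO and 934.3 to 1560 in GSK126, nearly all from CDH5 in the GSK126 libraries. The sum of 4 plasma cell markers, a type rich in ER, was 20920 to 25730 in DMSO, 24760 to 27020 with lapatinib, 26430 to 34380 with GSK126 and 36620 to 40570 in the combination. It came almost wholly from SDC1, which epithelial cells express too, while TNFRSF17 and IGJ were at or near 0. MZB1 went the other way, with means of 366.2 in DMSO, 307.9 with lapatinib, 127.4 with GSK126 and 85.9 in the combination. The sum of 5 leukocyte markers, mostly CD68, was 178.2 to 209.5 in DMSO, 233.1 to 318.3 with lapatinib, 281.5 to 446.4 with GSK126 and 636.6 to 759.2 in the combination, and that of 6 fibroblast markers was 392.3 or less throughout. The part of these genes in the results was not tested.

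CREB3L1 was low without lapatinib and high with it, whether or not GSK126 was present. Its counts were 58.8, 109.7 and 82.2 in the DMSO libraries and 808.9, 652.4 and 708.5 in the lapatinib libraries. They were 69.0, 62.9 and 87.5 with GSK126 and 339.8, 301.7 and 310.3 in the combination. The 3 lapatinib libraries were the highest of the 12, the 3 combination libraries came next, and the other 6 lay together and far below. Over DMSO the log2 change with lapatinib was 3.14 ± 0.23 (SE), or 8.8-fold, the value by which the gene was chosen. In the 6 libraries that the choice did not use, CREB3L1 rose by 2.11 ± 0.23 with lapatinib after GSK126, or 4.33-fold, at a limma adjusted p of 3.95e-05. It was 2.08 ± 0.24 without GSK126 library 1. On the spike-in total it was 1.08 ± 0.57 and no longer passed (adjusted p = 0.154). The SE and adjusted p come from the fit of all 12 libraries, so the libraries behind the choice enter them. That fit gives all groups 1 spread for a gene. The median SD of log2 values over genes was 0.243 in DMSO, 0.116 with lapatinib, 0.432 with GSK126 and 0.203 in the combination.

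The comparisons of GSK126 with DMSO and of the combination with lapatinib use libraries by which CREB3L1 was chosen, so they are given for this gene as a description, with no test. CREB3L1 was at a log2 difference of -0.16 ± 0.23 with GSK126 over DMSO and of -1.18 ± 0.23 in the combination over lapatinib alone. The lapatinib change after GSK126 minus the one over DMSO was -1.02 ± 0.32.

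CREB3L4 rose with lapatinib in the presence and absence of GSK126, by less in its presence. Its counts were 4149, 3189.6 and 3448 in DMSO, 7769, 8029 and 7275 with lapatinib, 2569.5, 2036 and 2810.0 with GSK126, and 3509, 3610.2 and 4079 in the combination. The lapatinib libraries were the highest and the GSK126 libraries the lowest, while the DMSO and combination libraries covered much the same range. The log2 change with lapatinib over DMSO was 1.10 ± 0.15. After GSK126, CREB3L4 rose by 0.60 ± 0.15 (adjusted p = 0.0147), a direction that turned to -0.44 ± 0.47 on the spike-in total. Without combination library 3 the adjusted p was 0.0573. The lapatinib change after GSK126 minus the one over DMSO was -0.50 ± 0.21, a difference that was not tested. CREB3L4 fell by 0.54 ± 0.15 with GSK126 over DMSO (adjusted p = 0.0269), the 1 member called there. That call was lost without DMSO library 1 (adjusted p = 0.122), DMSO library 3 (0.0639) or GSK126 library 2 (0.0701), on the spike-in total, and with the spike-in composition as a term (-0.45 ± 0.27, adjusted p = 0.589). In lapatinib-treated cells CREB3L4 fell by 1.05 ± 0.15 with GSK126 (adjusted p = 0.000289), which on the spike-in total was -1.51 ± 0.47 with an adjusted p of 0.0897.

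CREB3L2 was the member of the family whose level varied most between the GSK126 libraries. Its counts were 1171, 1620.5 and 1423 in DMSO, 2407, 2045 and 2438 with lapatinib, 842.3, 2169.6 and 1492 with GSK126, and 2979.6, 2685 and 2347 in the combination. Each library given lapatinib, except lapatinib library 2, was above every library without it. The log2 change over DMSO was 0.72 ± 0.27. After GSK126, CREB3L2 rose by 0.93 ± 0.27 (adjusted p = 0.0303), or by 0.56 ± 0.18 (adjusted p = 0.0471) without the low GSK126 library 1, a direction that turned to -0.12 ± 0.62 on the spike-in total. The adjusted p was 0.0573 without GSK126 library 3, 0.108 without combination library 1 and 0.0926 without combination library 2. With GSK126, CREB3L2 was at 0.01 ± 0.27 over DMSO (adjusted p = 0.994) and at 0.22 ± 0.27 in lapatinib-treated cells (adjusted p = 0.673), neither called. Without GSK126 library 1 the change over DMSO was 0.37 ± 0.18, also not called (adjusted p = 0.16).

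**Figure D1:**
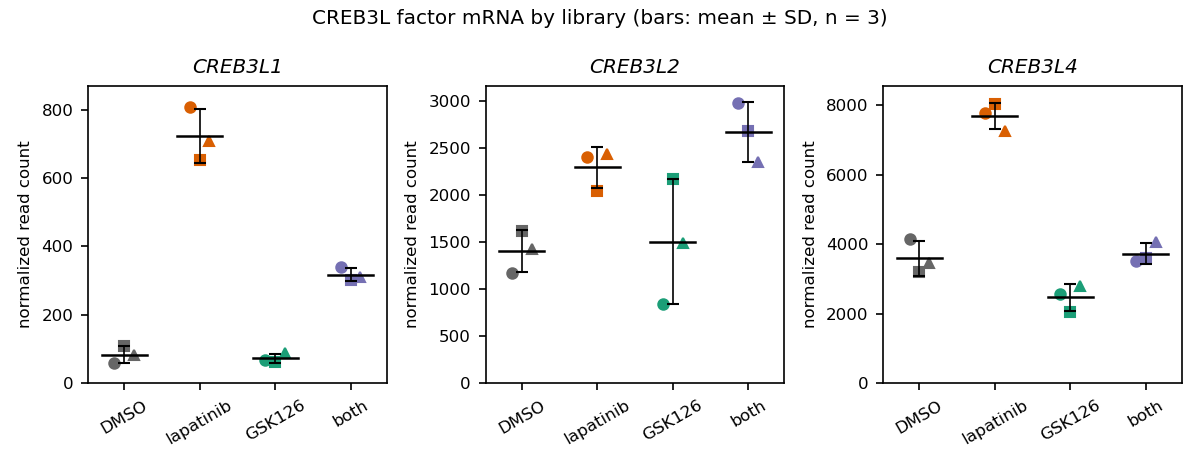
Normalized read counts (y axis, linear, from 0) of CREB3L1, CREB3L2 and CREB3L4 in the 4 groups (x axis, with the combination marked both), with a point for each library and bars for the mean and SD of 3 libraries. CREB3L1 in the lapatinib libraries (652.4 to 808.9) and the combination libraries (301.7 to 339.8) stood above the other 6 libraries, and CREB3L4 with GSK126 (2036 to 2810.0) was below DMSO. On the spike-in total CREB3L2 and CREB3L4 were not higher after GSK126 with lapatinib.

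HSPA5, the main ER chaperone of the HSP70 family (BiP), had lower counts with lapatinib over DMSO and was not called with lapatinib after GSK126. Its counts were 14002, 15673 and 16174 in DMSO, 12602, 12848 and 13509 with lapatinib, 16195, 19259 and 14342 with GSK126, and 15844, 20004 and 18323 in the combination. Every lapatinib library lay below every DMSO library, at a log2 change of -0.23 ± 0.15. After GSK126 the lapatinib change was 0.13 ± 0.15 and was not called (adjusted p = 0.578), and those groups overlapped. HSPA5 was higher in the combination than in lapatinib alone, by 0.47 ± 0.15 (adjusted p = 0.0396), with no overlap. That call is close to the threshold: it was lost without any 1 of the 3 lapatinib libraries (adjusted p 0.088 to 0.139), without combination library 2 (0.178) or 3 (0.102) or DMSO library 2 (0.0539) or 3 (0.0532), and with TMM scaling (0.0533). On the spike-in total the difference was 0.0043.

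HSP90B1, the HSP90 protein of the ER (GRP94), had counts that spread widely among the GSK126 libraries. Its counts were 39839, 30221 and 40722 in DMSO, 26009, 28267 and 28527 with lapatinib, 70742, 35777 and 26422 with GSK126, and 28539.8, 38488 and 42685 in the combination. All lapatinib libraries lay below DMSO (-0.41 ± 0.29), and GSK126 library 1 was far above every other library. After GSK126 the lapatinib change was -0.17 ± 0.29 (adjusted p = 0.714), and without GSK126 library 1 it was 0.23 ± 0.20 (adjusted p = 0.461), so its sign rested on that library. The combination libraries all lay above lapatinib alone, at 0.39 ± 0.29, which was not called (adjusted p = 0.438). With the spike-in composition as a term it was 0.56 ± 0.17 and passed (adjusted p = 0.0405), whereas the same value from leaving out combination library 1 had an SE of 0.32 and did not (adjusted p = 0.346).

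SDF2L1, a partner of the HSPA5 chaperone complex, had the largest decrease of the 10 genes over DMSO. Its counts were 5771, 3291 and 3393 in DMSO, 1549, 1674 and 1482 with lapatinib, 5952, 1824 and 2927 with GSK126, and 1245, 1391 and 2236 in the combination. Every lapatinib library was below every DMSO library, at -1.36 ± 0.36. After GSK126 the change was -1.01 ± 0.36 and just missed the threshold (adjusted p = 0.0713), with combination library 3 above GSK126 library 2. It passed without GSK126 library 2 (-1.41, adjusted p = 0.00738), on the spike-in total (-2.06 ± 0.45, adjusted p = 0.00386) and with DESeq2 (adjusted p = 0.0136), and was -0.56 ± 0.28 without GSK126 library 1 (adjusted p = 0.193). Lapatinib alone and the combination did not differ detectably (0.00 ± 0.36, adjusted p = 0.996).

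DNAJB9, a co-chaperone of HSPA5 and a textbook target of XBP1, was higher with lapatinib. Its counts were 882.5, 1253 and 1124 in DMSO, 1902, 1917 and 2064 with lapatinib, 442.5, 1299 and 1063 with GSK126, and 2045, 2112 and 1646 in the combination. The 6 libraries given lapatinib were all above the other 6. The log2 change was 0.87 ± 0.31 over DMSO. After GSK126, DNAJB9 rose by 1.18 ± 0.31 (adjusted p = 0.0189), and by 0.71 ± 0.17 (adjusted p = 0.00925) without the low GSK126 library 1. Without combination library 1 or 2 it no longer passed (adjusted p 0.0664 and 0.0755), and on the spike-in total it was 0.14 ± 0.64.

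HERPUD1, a membrane protein of the complex that draws misfolded proteins out of the ER, was higher in every library given lapatinib than in any other. Its counts were 3197, 3469 and 3557 in DMSO, 6104, 6061 and 6079 with lapatinib, 2319, 3486 and 3045 with GSK126, and 5327, 5751 and 5242 in the combination. The 3 lapatinib libraries lay within 6061 to 6104, and the combination libraries were all below them. The change was 0.84 ± 0.15 over DMSO. After GSK126, HERPUD1 rose by 0.90 ± 0.15 (adjusted p = 0.000979) and, without GSK126 library 1, by 0.74 ± 0.11 (adjusted p = 0.000498), a direction that turned to -0.14 ± 0.53 on the spike-in total. The lapatinib changes with and without GSK126 were apart by 0.06 ± 0.21, a difference that was not tested. The difference between the combination and lapatinib alone was -0.16 ± 0.15 and was not called (adjusted p = 0.535).

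SEL1L, the adaptor of that complex, and EDEM1, which helps to select misfolded glycoproteins for it, were high in all 6 lapatinib-treated libraries and in GSK126 library 2. SEL1L counts were 1124, 1314 and 1452 in DMSO, 1948, 1795 and 2206 with lapatinib, 1039, 2213 and 1218 with GSK126, and 2126, 2081 and 1807 in the combination. EDEM1 counts were 1079.9, 1756 and 1527 in DMSO, 2075, 2007 and 2218 with lapatinib, 977.0, 1970.2 and 1359 with GSK126, and 2078, 2068 and 1811 in the combination. Over DMSO the changes were 0.62 ± 0.23 for SEL1L and 0.56 ± 0.23 for EDEM1, with no overlap. Scaled to the spike-in total they were 0.08 ± 0.59 and 0.02 ± 0.59. After GSK126 the changes were 0.50 ± 0.23 (adjusted p = 0.149) and 0.52 ± 0.23 (adjusted p = 0.134), and neither passed. Without GSK126 library 2, the library that overlapped the combination, they were 0.83 (adjusted p = 0.00235) and 0.78 (adjusted p = 0.0125). The spike-in total shifted the median change of all genes after GSK126 by -1.03, more than any of these rises.

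**Figure D2:**
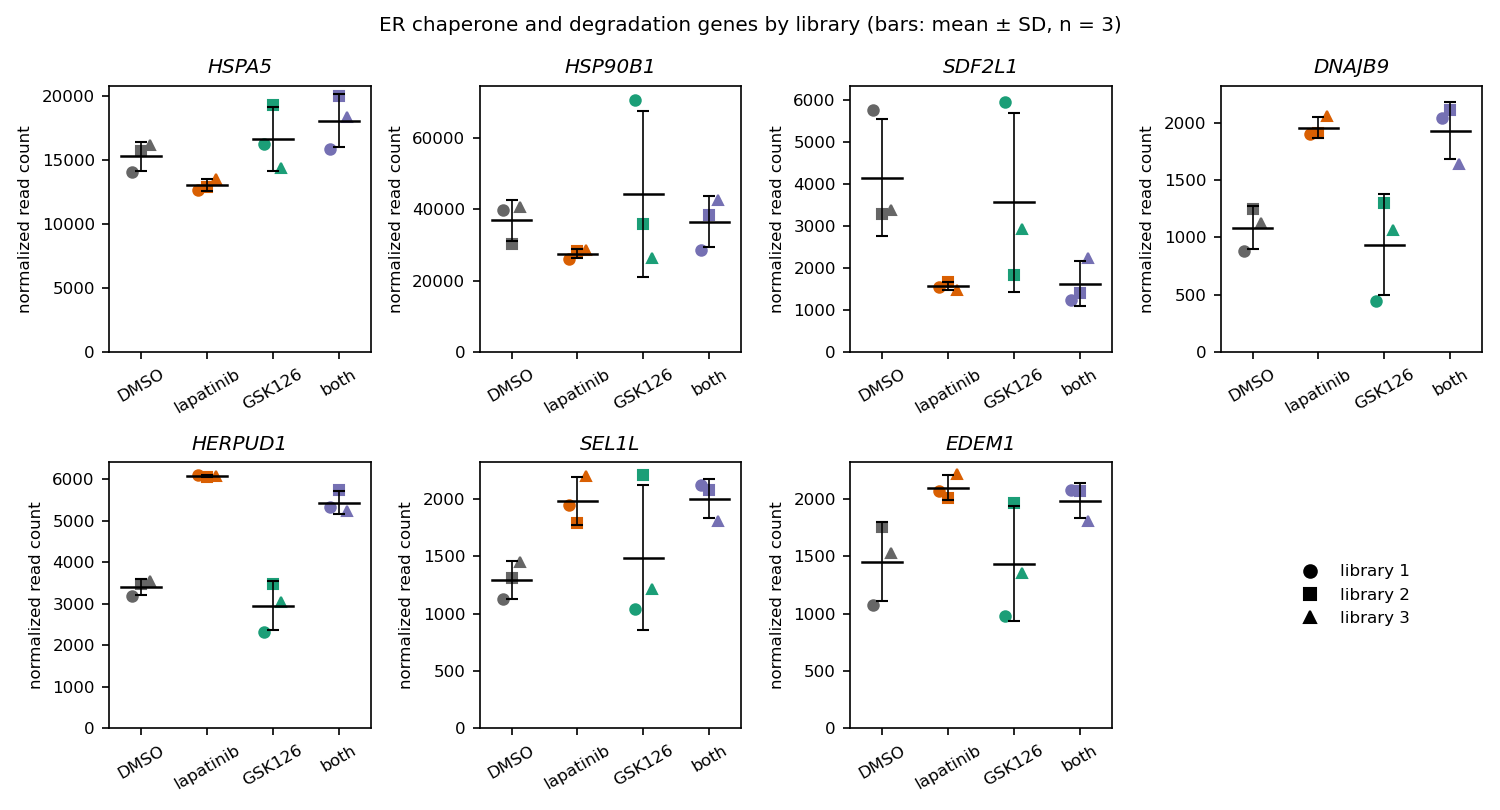
Normalized read counts (y axis, linear, from 0, a scale for each gene) of the 7 chaperone and degradation genes in the 4 groups (x axis, with the combination marked both), with a marker for each library number and bars for the mean and SD of 3 libraries. HERPUD1 and DNAJB9 separated the libraries given lapatinib from the others on the authors' size factors, while SDF2L1 in the lapatinib libraries (1482 to 1674) was below DMSO (3291 to 5771), and GSK126 library 1 stood apart in HSP90B1 at 70742.

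In lapatinib after GSK126 against GSK126, 5 of the 10 genes were called higher and 0 lower: all 3 factors, DNAJB9 and HERPUD1. Among all genes tested, 8.48% were called higher and 9.71% lower. The changes of the other 5 ran from -1.01 (SDF2L1) to 0.52 (EDEM1). The 5 called genes were also the ones whose libraries did not overlap, as 15.6% of all genes did in the higher direction. Median log2 changes were 0.56 for the 10 and 0.041 for all genes tested. The count and the median of the 10 include CREB3L1, which was chosen by its rise with the same drug over DMSO. The same 5 were called without GSK126 library 1, and edgeR's quasi-likelihood test on the recovered reads also called 5. With the spike-in composition as a term, CREB3L1 (2.18 ± 0.34, adjusted p = 0.00229) and HERPUD1 (0.71 ± 0.15, adjusted p = 0.0146) were called. Both estimates set combination library 1 against GSK126 libraries 2 and 3, with that lone combination library assumed to vary like the other groups. A fit without GSK126 library 1 and combination libraries 2 and 3, which kept the DMSO and lapatinib libraries, has the same estimates. It is thus no further check. Combination library 1 had 18 M reads and 21669 genes detected, the lowest total and the most genes of the 12 libraries. In a fit of the 2 groups alone CREB3L1 and HERPUD1 were again the ones called. On the spike-in total 2 others were, HSP90B1 and SDF2L1, both lower.

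Over DMSO, the contrast behind the choice of CREB3L1, lapatinib libraries did not overlap DMSO for any of the 10 genes, 7 higher and 3 lower. Among all genes tested 28.2% were higher and 27.2% lower without overlap. Nothing is read from these counts. The 2 chaperones and SDF2L1 made up the 3 below DMSO.

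GSK126 over DMSO gave 1 called gene of the 9 other than CREB3L1, namely CREB3L4, which was lower, while 10.7% of all genes tested were called higher and 3.93% lower. The other 8 changes ran from -0.34 (DNAJB9 and SDF2L1) to 0.15 (HSP90B1), with adjusted p from 0.36 to 0.994. Without GSK126 library 1, SDF2L1 was at -0.80 ± 0.28 there (adjusted p = 0.0569). In lapatinib-treated cells, of the 9 genes other than CREB3L1, GSK126 gave 1 called higher, HSPA5, and 1 called lower, CREB3L4, where 11.5% and 6.35% of all genes were called. The degradation genes and DNAJB9 had changes of -0.16 to 0.02 there, with adjusted p from 0.535 to 0.975. These comparisons share the DMSO and lapatinib libraries with the contrast behind the choice of CREB3L1.

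**Figure D3:**
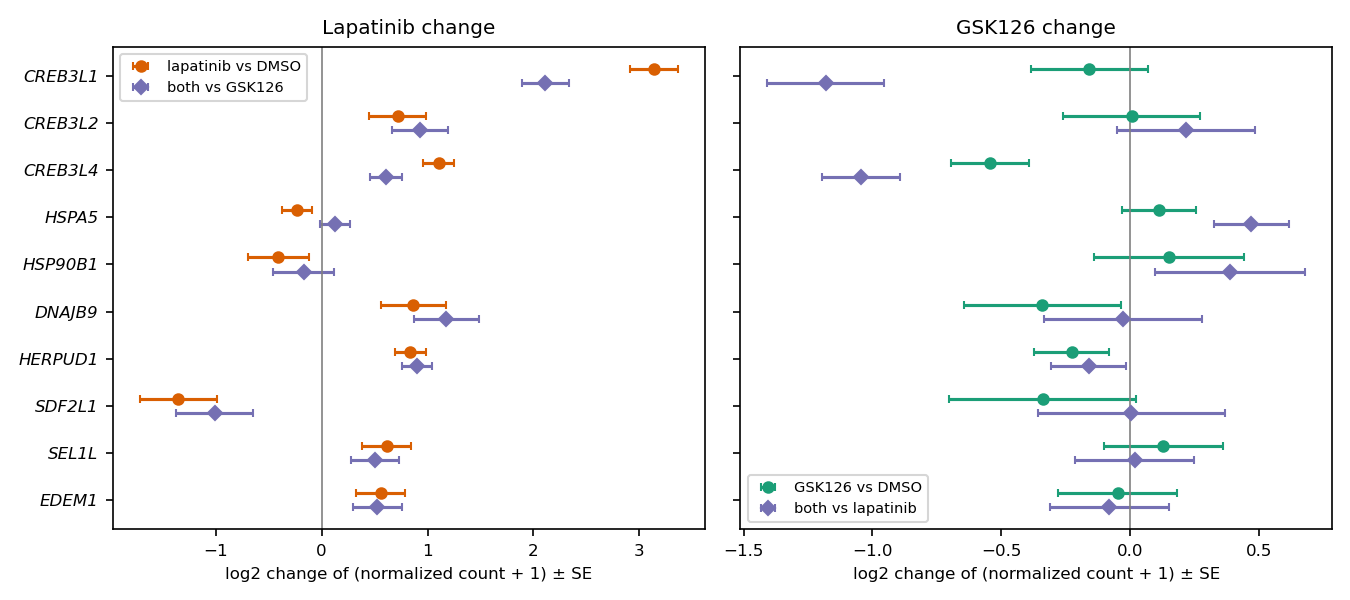
Log2 change of (normalized count + 1) with its SE (x axis) for the 10 genes (y axis), with lapatinib in the presence and absence of GSK126 in one panel and GSK126 in the presence and absence of lapatinib in the other. CREB3L1 had the largest lapatinib changes of the set, at 3.14 over DMSO and 2.11 after GSK126, and SDF2L1 the lowest, at -1.36 and -1.01. With GSK126 in lapatinib-treated cells CREB3L1 and CREB3L4 lay near -1. Of the genes called with lapatinib after GSK126, CREB3L2, CREB3L4 and HERPUD1 turned below 0 on the spike-in total. The median of all genes shifted there by -1.03, more than the uncalled rises of SEL1L, EDEM1 and HSPA5.

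Within groups several of the genes deviated together in the same libraries. CREB3L2, DNAJB9, HERPUD1, EDEM1 and SEL1L were all below their group mean in GSK126 library 1 and all above it in GSK126 library 2, and SDF2L1 was the reverse. For DNAJB9 the log2 deviations were -0.94 and 0.61 in these 2 libraries, and for SDF2L1 they were 0.91 and -0.80. DMSO library 1 had the same pattern at a smaller size, with EDEM1 at -0.40 and SDF2L1 at 0.53. CREB3L1 deviated by -0.07 in GSK126 library 1 and by -0.20 in library 2. In DMSO it did go with these genes, at -0.45 in library 1 and 0.43 in library 2. The share of reads from MALAT1, a long nuclear RNA, was 4.04% in GSK126 library 1 and 1.05% in GSK126 library 2, and the spike-in share was 1.33% and 0.384%. Their part in these deviations was not tested.

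**Figure D4:**
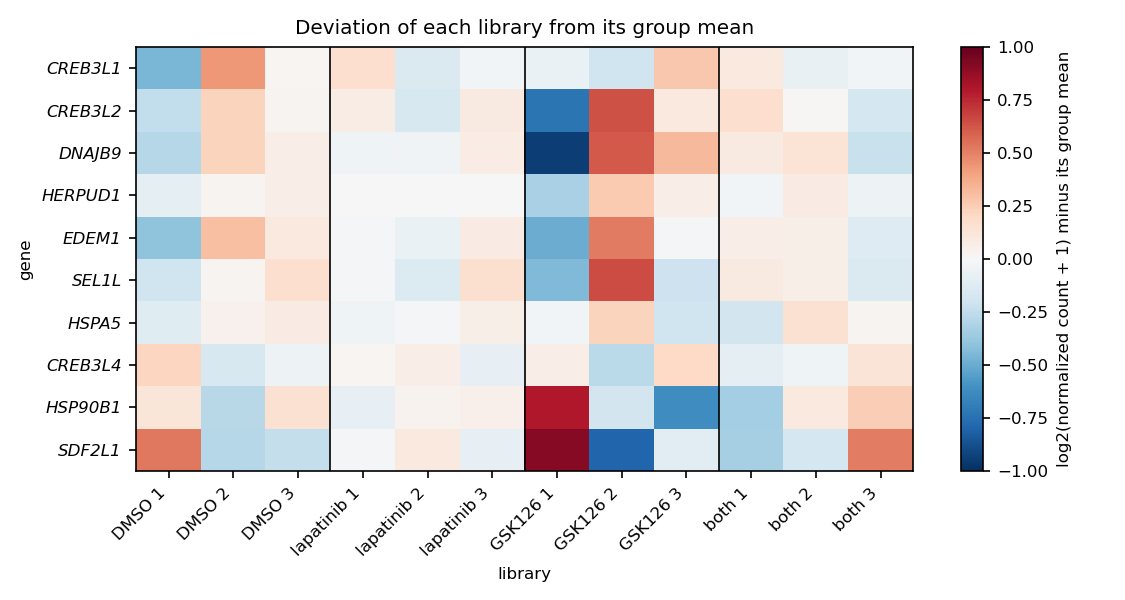
Log2(normalized count + 1) minus its group mean (colour) for the 10 genes (y axis) in the 12 libraries (x axis, with the combination marked both). GSK126 libraries 1 and 2 carry the strongest colours, with DNAJB9 at -0.94 and 0.61 and SDF2L1 at 0.91 and -0.80. CREB3L1 was at -0.07 and -0.20 in the same libraries, and at -0.45 and 0.43 in DMSO libraries 1 and 2.

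The other genes of the route and of the ER were read from lists chosen with earlier results of these data known, and are given as counts beside all genes. The relatives CREB3, ATF6 and ATF6B were tested, and CREB3L3 was too low. None of the 3 was called with lapatinib after GSK126, where 8.48% of all genes were called higher and 9.71% lower. Their changes were -0.04 ± 0.16 for CREB3, 0.21 ± 0.13 for ATF6 and 0.24 ± 0.27 for ATF6B, with limma adjusted p of 0.871, 0.282 and 0.566. Of 12 genes for the proteases and coat proteins that carry and cut these factors, 0 were called, beside the same shares of all genes. The median change of these 12 was 0.34, beside 0.041 for all genes. The protease gene MBTPS1 was at 0.39 ± 0.15 (adjusted p = 0.0921), and the coat genes SEC31A and SEC24D were at 0.65 ± 0.25 and 1.10 ± 0.47 (adjusted p 0.0848 and 0.12).

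XBP1 rose with lapatinib in cells given GSK126, from a mean count of 8755 ± 1840 to 21020 ± 1350 (SD, n = 3), a log2 change of 1.28 ± 0.16 (limma adjusted p = 0.000127) that was 0.24 ± 0.49 on the spike-in total (adjusted p = 0.701). It was 19180 ± 1570 in DMSO and 53060 ± 1750 with lapatinib alone. With GSK126, XBP1 fell by 1.15 ± 0.16 over DMSO (adjusted p = 0.000269) and by 1.34 ± 0.16 in lapatinib-treated cells (adjusted p = 5.84e-05). These are total XBP1 counts, which do not tell the spliced form from the unspliced. The PERK gene EIF2AK3 rose by 1.21 ± 0.37 (adjusted p = 0.0372) with overlapping libraries, and the IRE1 gene ERN1 was at 0.60 ± 0.47 (adjusted p = 0.393). With XBP1 and EIF2AK3, 2 of the 4 tested genes of that list were called, where 8.48% of all genes were called higher. The EIF2AK3 call was lost in 8 of 12 fits that left out a library. The count was 1 with edgeR, total count scaling, a constant prior variance, the composition as a term or the 2 groups alone, and 0 on the spike-in total.

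Among 21 other degradation genes tested, 4 were called higher and 1 lower with lapatinib after GSK126, beside 8.48% and 9.71% of all genes, and the list's median was 0.046 beside 0.041 for all genes. UBE2J1, an ER ubiquitin-conjugating enzyme, rose by 0.87 ± 0.19 (adjusted p = 0.00669), and ERLEC1, a lectin of the degradation complex, by 0.59 ± 0.13 (adjusted p = 0.00894). On the spike-in total these were -0.17 and -0.46. OS9, another such lectin, and SYVN1, the ligase of the complex, were called as well, at 0.54 and 0.46. UFD1L, a cofactor of the VCP segregase, fell by 0.75 ± 0.18 (adjusted p = 0.0126). Of 12 fits that left out a library, the call was lost in 2 for UFD1L and 1 for ERLEC1. In a fit of the 2 groups alone, with the composition as a term or on the spike-in total, 0 of the list were called higher, and DESeq2 called 7.

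Of 25 other ER chaperones and folding enzymes, 1 was called higher and 1 lower with lapatinib after GSK126, beside 8.48% and 9.71% of all genes, with a median of 0.037. The oxidase gene ERO1LB rose by 1.10 ± 0.34 (adjusted p = 0.0393), from a mean count of 49.06 to 100.6, and the peroxiredoxin gene PRDX4 fell by 0.86 ± 0.19 (adjusted p = 0.00917). The ERO1LB call was lost in 9 of 12 fits that left out a library, with no filter, with the composition as a term, with the 2 groups alone and on the spike-in total, where 0 of the list were called higher, and edgeR and DESeq2 each called 2. On the spike-in total 7 of the list were called lower, and with the 2 groups alone 0 were. SDF2, the relative of SDF2L1, was at 0.36 ± 0.12 (adjusted p = 0.0575). None of 23 genes of the translocon, signal peptidase and glycan transfer was called in that comparison, with a median of 0.0042, but 5 were called lower on the spike-in total and 1 with DESeq2. RPN1, STT3B and SRPRB, with the smallest p of that list, had adjusted p of 0.0754, 0.24 and 0.241.

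The 10 genes listed as the PERK arm had 5 called higher and 0 lower with lapatinib after GSK126, beside 8.48% and 9.71% of all genes, with a median of 0.47. The name is only a label of the list, and what raised these genes was not tested. CHAC1, which degrades glutathione, rose by 2.92 ± 0.19 (adjusted p = 8.47e-07), from a mean count of 239.9 ± 60.3 to 1785 ± 36.8 (SD, n = 3). It was 64.88 ± 10.8 in DMSO and 241.9 ± 11.1 with lapatinib alone. DDIT4 rose by 0.59 ± 0.14 (adjusted p = 0.0135) and ASNS, asparagine synthetase, by 0.45 ± 0.12 (adjusted p = 0.0219), both turning below 0 on the spike-in total (-0.45 and -0.60). Of 12 fits that left out a library, the call was lost in 1 for DDIT4 and 3 for ASNS. With the composition as a term, the 2 groups alone or on the spike-in total, 1 of the list was called. GSK126 in lapatinib-treated cells gave 6 of the 10 higher and 0 lower, with a median of 0.93, beside 11.5% and 6.35% of all genes, and 2 higher on the spike-in total. GSK126 over DMSO gave 5 higher and 1 lower, beside 10.7% and 3.93% of all genes, and 0 and 0 on the spike-in total, or 3 and 0 with the 2 groups alone.

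For contrast, 12 cytosolic and mitochondrial heat shock genes had 0 called higher and 4 lower with lapatinib after GSK126, beside 8.48% and 9.71% of all genes, with a median of -0.43. HSPE1 fell by 0.71 ± 0.20 (adjusted p = 0.0277), HSPA1A by 0.54 ± 0.16 (adjusted p = 0.0303) and HSPD1 by 0.61 ± 0.18 (adjusted p = 0.0306), HSPD1 with overlapping libraries. Of 12 fits that left out a library, the call was lost in 4 for HSPE1, 5 for HSPA1A and 5 for HSPD1. With the composition as a term or in a fit of the 2 groups alone, 0 of the list were called lower, and on the spike-in total 8 were. The count was 2 with upper quartile or total count scaling.

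**Figure D5:**
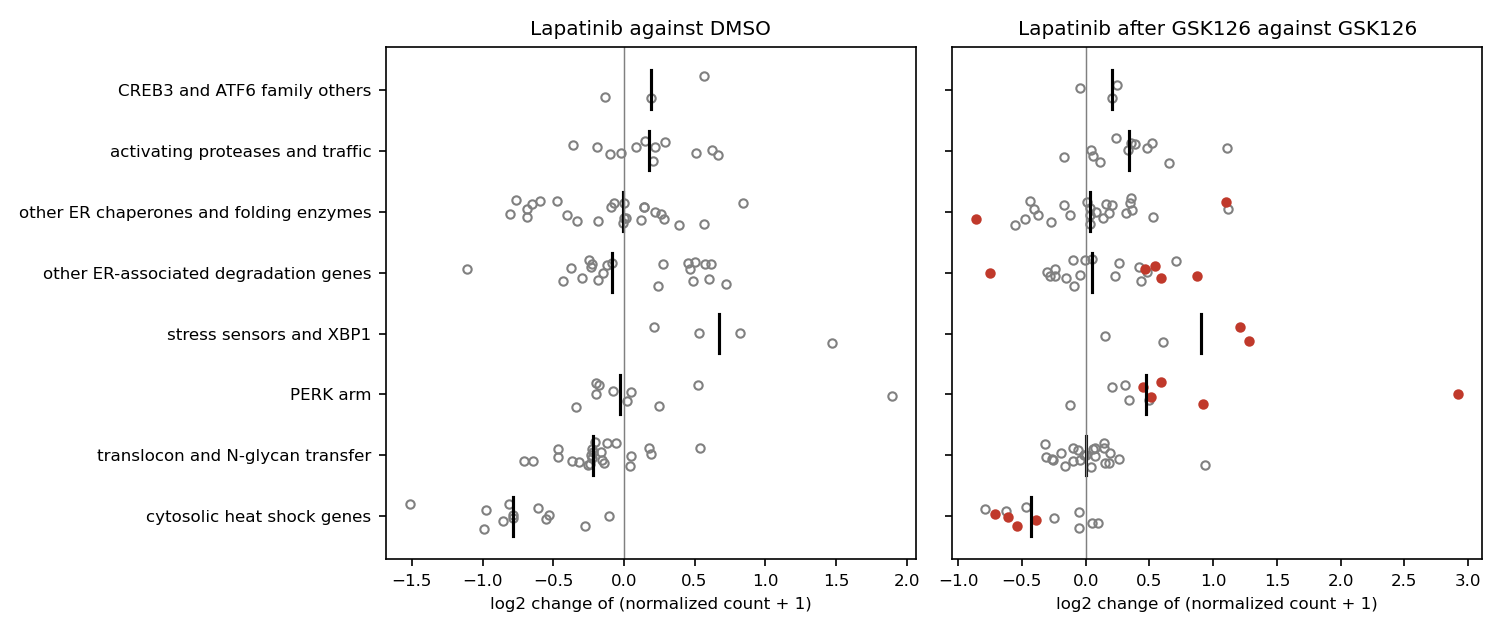
Log2 change of (normalized count + 1) (x axis) for each tested gene of the 8 lists (y axis), with a line at each list's median, for lapatinib over DMSO and for lapatinib after GSK126, where genes called are filled and calls are shown for the second alone. With lapatinib after GSK126 the median was 0.47 for the list labelled PERK arm, -0.43 for the cytosolic heat shock genes and 0.037 for the other ER chaperones, beside 0.041 for all genes tested on the authors' size factors.

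The 5 genes with counts most like those of CREB3L1 across the 12 libraries, by Pearson's r on the log2 scale over 11913 genes, were LIMK2 (0.986), ARHGEF4 (0.986), CSAD (0.985), CAPN13 (0.985) and LOC100506548 (0.982). Each had its highest mean with lapatinib, the next in the combination, and lower means in DMSO and GSK126, as CREB3L1 did. CSAD, for example, had mean counts of 738.5, 1628, 660.2 and 1182 in DMSO, lapatinib, GSK126 and the combination. For HSPA5 they were PDE4D (0.961), ERRFI1 (0.952), RBM7 (0.949), RFWD2 (0.943) and HNRNPH1 (0.943). ERRFI1, a feedback inhibitor of EGFR, had mean counts of 336, 163.8, 505.9 and 586.4 in that order of groups. These r values describe libraries in 4 groups, share the library scaling, and follow mainly the differences between the groups.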

How the data were processed

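Messenger RNA of SKBR3 cells was measured in 12 libraries, 3 in each of 4 groups taken from the labels. The authors deposited a signal per gene and library, read counts divided by DESeq2 size factors. Per the submitters' processing notes, STAR, hg19 and DESeq2 were used, with no versions given there, and the counter, annotation, strand and filters are not given in the sources used here. All deposited values (100%) were within 0.01 of a whole number of reads once the step of each library was known, so reads were recovered, 18.0 to 30.47 M per library. The table held 22256 features, 86 of them spike-ins, and every column of values was mapped to a sample.

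Differences were fitted with limma (3.58.1, R 4.3.3) to log2(value + 1). The 12 libraries entered a single model of 4 group means, with 8 residual degrees of freedom, and the prior variance followed a trend. P-values were adjusted by Benjamini-Hochberg over the 14179 genes that reached 10 in 3 or more libraries. The scripts were tested on simulated data. The members and lists were chosen with earlier results of these data known. Named are all 10 members, up to 3 genes per list, ranked by adjusted p with lapatinib after GSK126, that had a mean of at least 50 in a group, and 5 genes most like CREB3L1 and HSPA5; OS9 and SYVN1 were named after their values were seen. Alternatives were other pseudocounts, filters, scalings, prior variances and fits, edgeR 4.0.16 and DESeq2 1.42.0 on the recovered reads, and leaving out each library. Spike-in compositions were read from 27 spike-ins with at least 100 reads in every library. The 18 pairs of libraries that share a number across groups had correlations of deviations from -0.334 to 0.352, with 4 over 0.1, so the numbers were not taken as pairs.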

Additional observations from a re-analysis of the deposited data

How the results depend on the processing

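With lapatinib after GSK126, 5 of the 10 genes were called, CREB3L1 among them. The count was 2 on the spike-in total, 2 in a fit of the 2 groups alone and 2 with the spike-in composition as a term. It was between 3 and 8 when each library was left out in turn. A fit without GSK126 library 1 and combination libraries 2 and 3 was chosen after seeing the data. It kept the DMSO and lapatinib libraries, and has 1 combination library and the same estimates as the composition term. The 2 on the spike-in total shared no gene with the 5. Reversals were looked for only among members and named list genes called in either fit. Those of CREB3L2 (-0.12), CREB3L4 (-0.44), HERPUD1 (-0.14), UBE2J1 (-0.17), ERLEC1 (-0.46), DDIT4 (-0.45) and ASNS (-0.60) were found there, and that of MBTPS1 (-0.034) over DMSO. The median of all genes shifted by -1.03 after GSK126, more than the uncalled rises of SEL1L, EDEM1 and HSPA5. CREB3L2 also lost its call with total count scaling (adjusted p = 0.0564) and a constant prior variance (0.0548), and DESeq2 called 6. With GSK126 over DMSO, the 1 called gene became 0 on the spike-in total, 0 in a fit of the 2 groups alone and 0 with the composition as a term, and 0 to 1 over left-out libraries; edgeR and DESeq2 each called 1. With GSK126 in lapatinib-treated cells, the 3 that passed, among them CREB3L1, which those libraries chose and whose pass is not read, became 0 on the spike-in total, 4 with the composition as a term, and 2 to 3 over left-out libraries. CREB3L1 over DMSO was 3.14, 2.60 on the spike-in total, and 2.91 to 3.35 over left-out libraries. The cause of these shifts was not tested.

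The replicate number as a block gave 5, 1 and 2 called members in these 3 comparisons, HSPA5 losing its call in the last (adjusted p = 0.0539); the numbers do not pair the libraries. Of all genes, 1202 were called higher and 1377 lower with lapatinib after GSK126, against 13 and 3044 on the spike-in total, 355 and 593 in a fit of the 2 groups alone, 366 and 781 with the composition as a term, and 538 to 2244 and 823 to 2167 over left-out libraries. With GSK126 over DMSO, 1512 higher and 557 lower became 565 and 13, 803 and 66, and 391 and 55 under the first 3 of these, and 261 were lower with total count scaling and 233 to 1330 over left-out libraries. With GSK126 in lapatinib-treated cells, 1637 and 900 became 327 and 81 on the spike-in total and 2668 and 2426 with the 2 groups alone, and 559 were lower with total count scaling and 455 to 1562 over left-out libraries.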
